A study of Mus musculus with 18 samples.

Results

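The genes described here are the Wnt ligands, their Frizzled and LRP receptors, the secreted proteins that raise or lower Wnt signalling, and the core nuclear effectors, in mouse colon and spinal dorsal horn. Members were taken by symbol: every gene named Wnt, Fzd, Sfrp, Dkk or Rspo with a number, plus Lrp5, Lrp6, Wif1, Lef1, Tcf7, Tcf7l2, Ctnnb1, Apc, Rnf43 and Notum. They came to 49 of the 15410 gene symbols in the count tables, with 46 of 14987 in the colon and all 49 among the 15193 of the dorsal horn. Wnt1, Wnt3a and Wnt7a had values in the dorsal horn alone, and Znrf3, which the rule also names, was not analysed here. The 49 comprised 19 Wnt ligands, 9 Frizzled receptors, 4 R-spondins, 9 secreted inhibitors, the co-receptors Lrp5 and Lrp6 with the ubiquitin ligase Rnf43, and beta-catenin (Ctnnb1), Apc and 3 TCF/LEF factors.

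The study asked how blocking the immune checkpoint receptor PD-1 affects bone cancer pain. Nivolumab, an antibody made against human PD-1, was given to mice with bone cancer (the nivolumab group). Mice with bone cancer that received IgG formed the cancer group, and sham-operated mice that received IgG formed the sham group. All mice were labelled wild type, and each group gave 3 colon and 3 dorsal horn libraries of bulk RNA. Strain, age, tumour line, dose and day were not given in the sources used here. Nor do they say whether libraries came from separate animals, so the p-values below reflect no more than how far apart these samples lie, and that spread may be technical.

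Wnt proteins are secreted, lipid-modified ligands that bind Frizzled receptors. With Lrp5 or Lrp6 as co-receptor they stop the destruction complex, of which Apc is a scaffold, from degrading beta-catenin, which then acts in the nucleus with TCF/LEF factors. R-spondins strengthen the signal by removing Rnf43 and Znrf3, which clear Frizzleds from the surface, whereas Sfrp proteins and Wif1 bind Wnts, Dkk1 binds Lrp5 and Lrp6, and Notum strips the lipid from Wnts. In the colon this pathway maintains the crypt stem cells and is fed by stromal ligands. In the spinal cord it patterns the dorsal neural tube, and Wnt7a and Wnt7b act on the vessels that form the barrier with the blood.

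Total counts were between 20896854 and 30803957 per colon library and between 21855085 and 29071908 per dorsal horn library. A floor of 3 counts equalled 0.0974 to 0.144 CPM (counts scaled by library size) for colon and 0.103 to 0.137 CPM for dorsal horn, covering counting error only. Replicates were further apart in the colon, with a biological coefficient of variation of 0.376 there against 0.170 for dorsal horn, so the colon comparisons are the less precise. After a filter on low counts, 37 members were tested for colon and 42 for dorsal horn. The untested members were Dkk1, Notum, Rspo4, Wnt10a, Wnt3, Wnt7b, Wnt8a, Wnt8b and Wnt9b in the colon, with at most 22 counts in a library. In the dorsal horn they were Wif1, Wnt1, Wnt10b, Wnt2, Wnt3a, Wnt8a and Wnt9b, with at most 16 counts. The colon epithelium list, of which 14 of 15 genes were in the table, had a mean between 9.55 and 10.5 log2 CPM in every colon library, and the dorsal horn neuron list, 14 of 16 genes, one between 5.01 and 5.54 in every dorsal horn library. No gene of either list was at 0 in any library.

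The highest ligand, Frizzled receptor and R-spondin differed between the sham tissues, while Lrp6, Dkk3 and Ctnnb1 led their families in both. Levels of different genes are compared here as CPM per kilobase of merged exons, and levels of 1 gene as CPM. Among the ligands, Wnt3 was highest in the sham dorsal horn at 7.31 ± 1.13 CPM per kilobase (SD, n = 3), followed by Wnt7b at 5.91 ± 1.60, a difference within their spread, and then by Wnt7a at 2.64 ± 0.98 and Wnt5a at 2.56 ± 0.23. In the sham colon the leading ligands were Wnt2b at 1.83 ± 0.41, Wnt4 at 1.56 ± 0.50, Wnt5a at 1.36 ± 0.31 and Wnt5b at 0.96 ± 0.43 CPM per kilobase, which overlapped in their spread. Wnt5a, the best known ligand of the beta-catenin-independent branch, led instead in the nivolumab colon at 1.39 ± 0.40 and in the cancer colon at 2.04 ± 1.37.

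**Figure D1:**
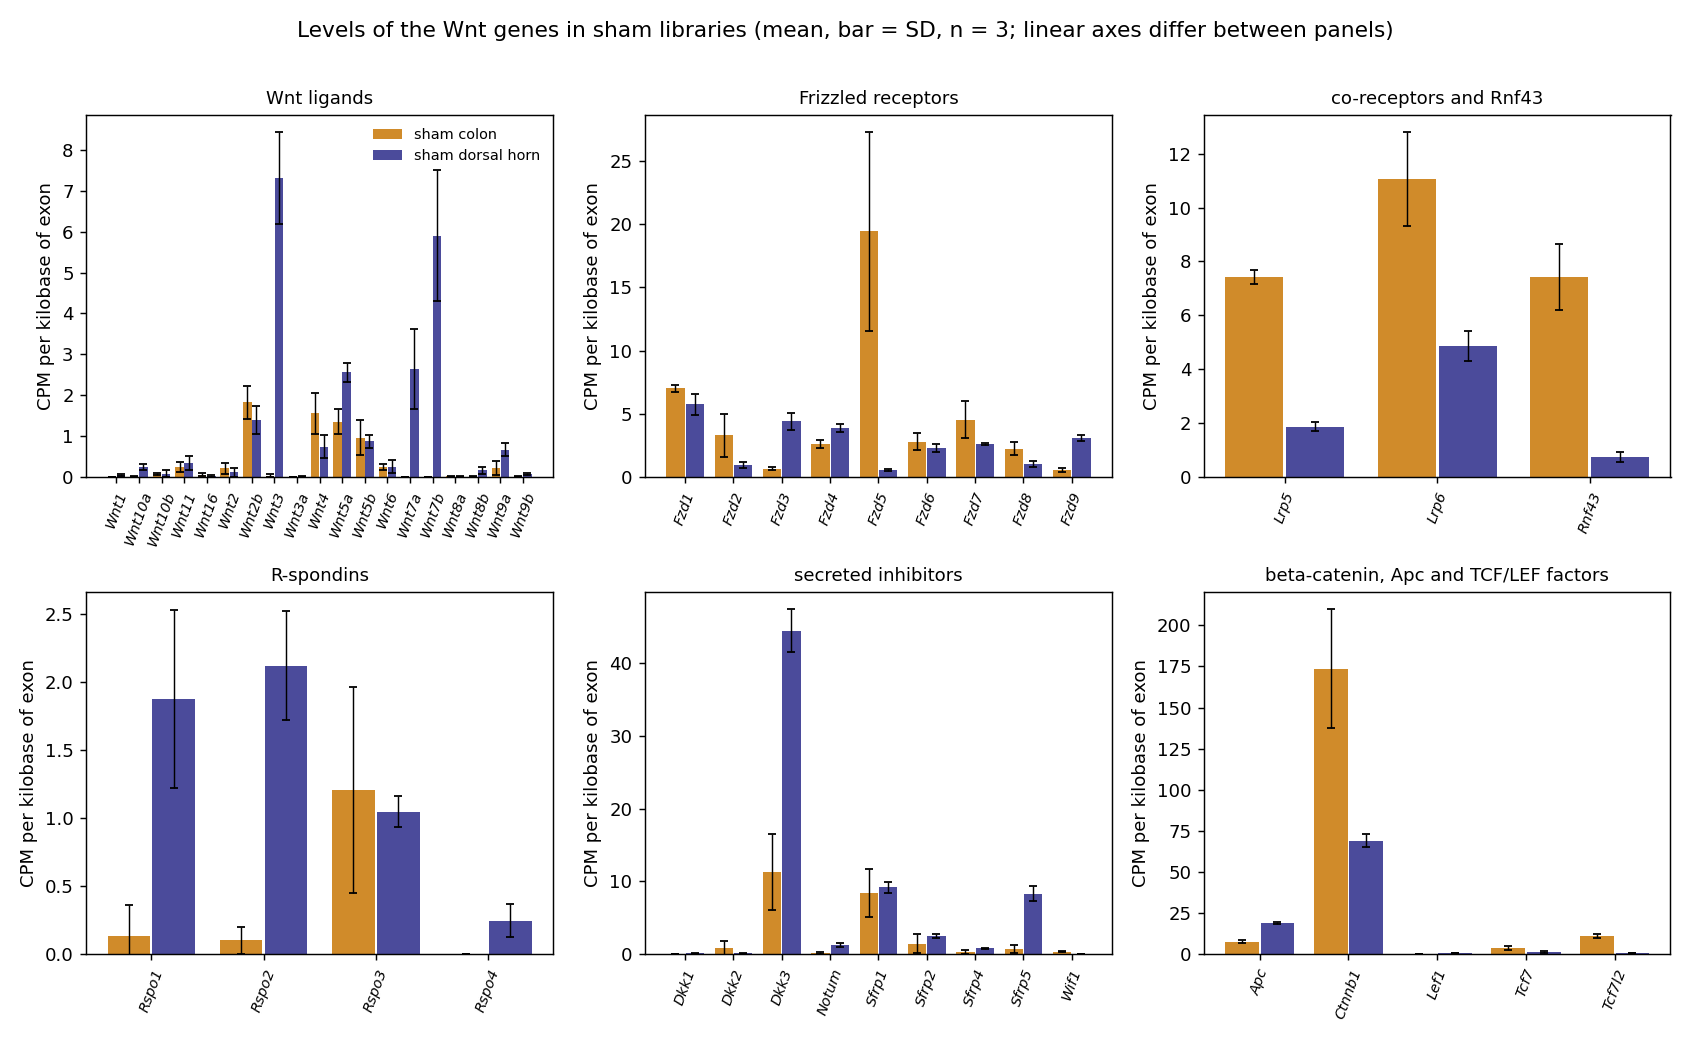
Mean level of each Wnt pathway member in sham colon and sham dorsal horn libraries, in CPM per kilobase of exon on linear axes that differ between panels; bars are SD over 3 libraries. Wnt3 and Wnt7b stand out among the ligands of the dorsal horn, Fzd5 stands out among the receptors of the colon, and Ctnnb1 is the highest member in both tissues.

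Of the receptors, Fzd5 led in the sham colon at 19.4 ± 7.85 CPM per kilobase, ahead of Fzd1 at 7.01 ± 0.30. In the sham dorsal horn Fzd1 at 5.74 ± 0.80, Fzd3 at 4.40 ± 0.67 and Fzd4 at 3.89 ± 0.33 lay close together, and Fzd3 took the lead in the nivolumab dorsal horn at 4.89 ± 0.30. Lrp6 was above Lrp5 in both tissues, at 11.1 ± 1.74 and 7.42 ± 0.25 CPM per kilobase in the sham colon and at 4.86 ± 0.56 and 1.87 ± 0.17 in the sham dorsal horn. The highest R-spondin was Rspo3 in the sham colon at 1.21 ± 0.75 and Rspo2 in the sham dorsal horn at 2.12 ± 0.40. Dkk3, a divergent Dickkopf member, led the secreted inhibitors in both tissues, at 11.3 ± 5.18 CPM per kilobase in the sham colon and 44.4 ± 2.95 in the sham dorsal horn. Ctnnb1, whose protein also joins cadherins at cell junctions, exceeded every other member, at 174 ± 36.0 CPM per kilobase in sham colon and 69.1 ± 4.12 in sham dorsal horn.

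When sham colon was set against sham dorsal horn in 1 fit of all 18 libraries, 27 of 44 members passed an adjusted p of 0.05 in edgeR's quasi-likelihood test with Benjamini-Hochberg adjustment. The share over all 14164 genes tested was 75.2%, so a difference between these tissues was no rarity. Higher in the colon were 12 members (38.2% of all genes were higher): Fzd5, Fzd2, Fzd7 and Fzd8, Lrp5 and Lrp6, Rnf43, Dkk2, Wnt4, Ctnnb1, Tcf7 and Tcf7l2. Fzd7 lost its call in 4 of 24 alternative fits, Wnt4 in 2 and Dkk2 in 1. Dkk2 was uneven in the sham colon, at 1.42, 7.19 and 0.507 CPM. Fzd5, needed for Paneth cell maturation in the mouse intestine, averaged 136 ± 52.6 CPM in sham colon and 3.73 ± 0.43 CPM in sham dorsal horn, a 36.3-fold difference. Tcf7l2, the TCF factor on which the intestinal crypt depends, averaged 101 ± 11 CPM in sham colon against 7.36 ± 1.11 CPM in sham dorsal horn, 13.7-fold. Rnf43, itself a target of the pathway, averaged 49.3 ± 6.98 CPM in sham colon against 4.88 ± 1.20 CPM in sham dorsal horn, 10.1-fold.

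Lower in the colon were 15 members (37% of all genes were lower): Wnt3, Wnt7b, Wnt8b and Wnt10a, Fzd3 and Fzd9, Rspo1, Rspo2 and Rspo4, Sfrp5, Dkk1, Dkk3 and Notum, and Apc and Lef1. Some were low in both tissues: in sham dorsal horn Dkk1 averaged 0.273 CPM, Wnt8b 0.548, Rspo4 0.572 and Wnt10a 0.604. Wnt7b averaged 0.022 ± 0.038 CPM in sham colon, under the floor, and 28.3 ± 7.71 CPM in sham dorsal horn. Wnt3 averaged 0.109 ± 0.10 CPM in sham colon and 22 ± 3.37 CPM in sham dorsal horn. Rspo2 averaged 0.535 ± 0.527 CPM in sham colon and 10.6 ± 2.00 CPM in sham dorsal horn, and Sfrp5 averaged 1.34 ± 1.10 CPM against 15.5 ± 1.98 CPM. Rspo4 had no read in any nivolumab or sham colon library and 2 reads in 1 cancer colon library. In bulk tissue, fewer cells of a type and less RNA per cell cannot be told apart, here and in every comparison below.

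In the dorsal horn of nivolumab mice, 7 of the 42 tested members were higher than in cancer mice and none was lower. They were the secreted Wnt binder Sfrp5, the R-spondin Rspo4, the ligands Wnt9a and Wnt2b, the receptor Fzd8, beta-catenin and Tcf7l2. Over all 13609 genes tested, 17.2% passed the same threshold, 8.63% higher and 8.6% lower, so the 16.7% of members that passed is near the share of all genes. The median log2 fold change was 0.08 over the tested members and 0.0002 over all genes tested. An unadjusted p under 0.05 was reached by 11 members (26.2%) and by 34.2% of all genes. The groups did not overlap for 11 members (26.2%), of which 8 lay above and 3 below cancer, against 40.1% of all genes (20.6% above and 19.5% below).

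Sfrp5, which binds Wnts outside the cell and so keeps them from Frizzleds, had the smallest p-value. It had 29.0, 25.0 and 31.8 CPM in nivolumab dorsal horns, against 13.1, 10.6 and 10.1 CPM in cancer dorsal horns, with 14.7, 18.2 and 14.6 CPM in sham dorsal horns. Every nivolumab library was above every other library. The difference from cancer was 2.53-fold (log2 fold change 1.34 ± 0.14 SE, edgeR adjusted p = 0.00149).

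Rspo4, an R-spondin known from human nail development, had 2.25, 1.85 and 1.89 CPM in nivolumab dorsal horns, against 0.489, 0.228 and 0.353 CPM in cancer dorsal horns and 0.247, 0.749 and 0.758 CPM in sham dorsal horns. The raw counts behind these values were 51 to 54 reads in nivolumab libraries, 6 to 14 in cancer libraries and 6 to 20 in sham libraries, so its level was low although its groups stood apart. The difference from cancer was 5.50-fold (log2 fold change 2.46 ± 0.45 SE, edgeR adjusted p = 0.00780). On GRCm38, Sfrp5 lies at chr19:42197971-42202252 on the minus strand with no other annotated gene over it, and Rspo4 at chr2:151842927-151874668 on the plus strand. Rspo4 overlaps the antisense gene Rspo4os, and since the strand setting of the counting was not given, reads of this pair cannot be told apart.

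Sfrp5 and Rspo4 passed against cancer in each fit without 1 library, whereas each of the other 5 lost its call in some. Their promoter windows are shown for that reason. Each runs from 250 bases before to 50 bases after the start of the gene (RefSeq, GRCm38.p6), and capitals mark GC boxes, searched as GGGCGG on one strand or CCGCCC on the other.
Sfrp5, chr19:42202203-42202502, minus strand: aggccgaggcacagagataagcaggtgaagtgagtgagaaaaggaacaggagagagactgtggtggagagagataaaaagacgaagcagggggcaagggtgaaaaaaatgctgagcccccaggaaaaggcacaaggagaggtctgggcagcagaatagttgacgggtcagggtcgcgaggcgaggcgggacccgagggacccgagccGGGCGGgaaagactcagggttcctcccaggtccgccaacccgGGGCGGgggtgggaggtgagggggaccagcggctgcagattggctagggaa
Rspo4, chr2:151842677-151842976, plus strand: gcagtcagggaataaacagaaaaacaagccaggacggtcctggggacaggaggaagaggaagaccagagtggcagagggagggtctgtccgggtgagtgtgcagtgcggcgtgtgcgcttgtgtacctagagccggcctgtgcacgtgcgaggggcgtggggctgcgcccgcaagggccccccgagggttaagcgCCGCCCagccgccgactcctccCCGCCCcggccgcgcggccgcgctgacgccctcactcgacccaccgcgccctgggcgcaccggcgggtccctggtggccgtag
Both windows are rich in G and C, at 61.3% of bases for Sfrp5 and 71% for Rspo4, and both hold 2 GC boxes. Of all 32851 promoter windows, 35.7% hold a GC box, and so do 30 of the 42 windows of the 32 members that the table matched. The TCF/LEF core CTTTGA or TCAAAG is in neither window, in 5 of the 42 member windows (those of Dkk1, Fzd1, Lef1, Wnt11 and Wnt5b) and in 16% of all windows. A match describes these letters and is not a binding site.

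**Figure D2:**
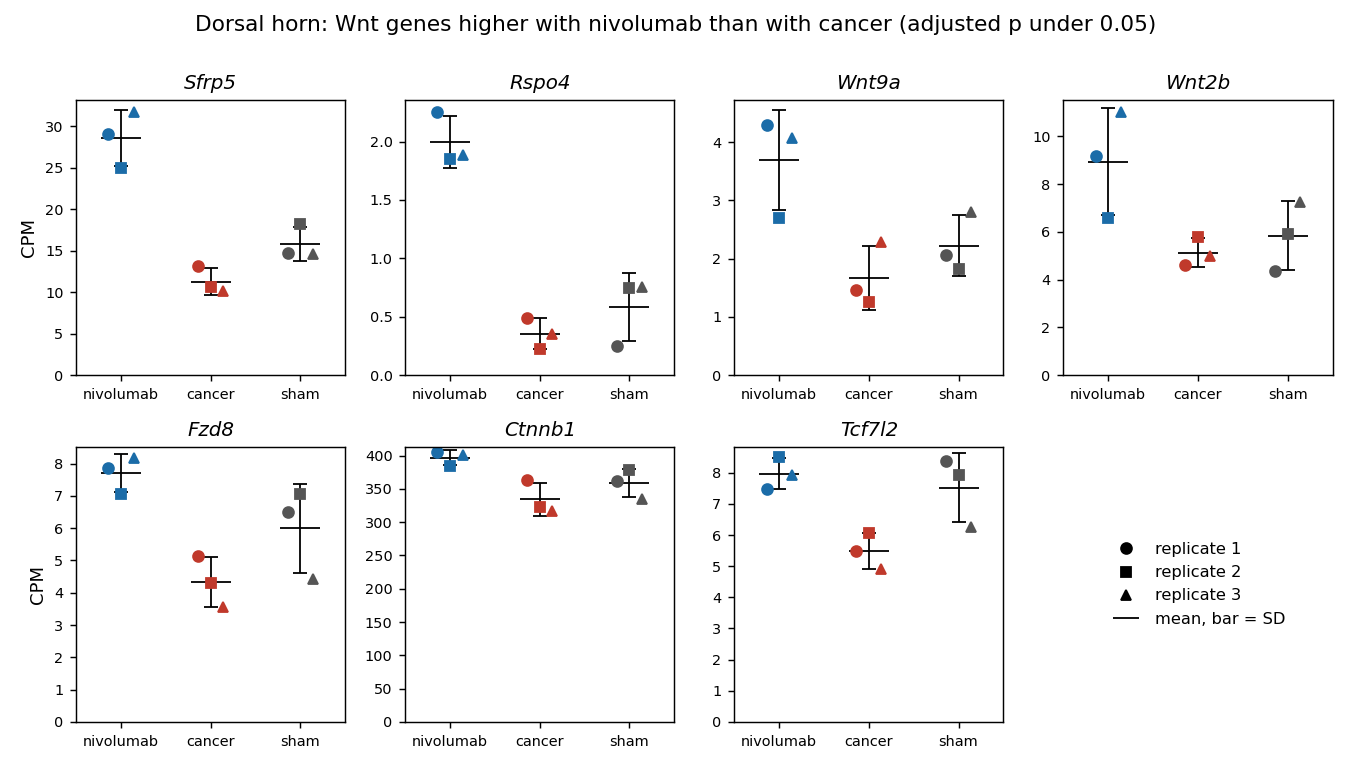
Level in CPM of the 7 members higher in nivolumab than in cancer dorsal horns, with 1 symbol per library (circle, square and triangle for replicates 1, 2 and 3) and the mean with SD bars for nivolumab, cancer and sham. For Sfrp5, Rspo4 and Ctnnb1 the nivolumab libraries lie above all others, while for Tcf7l2 and Fzd8 the sham values reach into the nivolumab range.

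Both ligands that rose were of middling or low level. Wnt9a had 4.29, 2.70 and 4.07 CPM in nivolumab dorsal horns, against 1.47, 1.26 and 2.29 CPM in cancer dorsal horns and 2.06, 1.81 and 2.81 CPM in sham dorsal horns. All nivolumab values were above the cancer values, but nivolumab 2 lay below sham 3. Its log2 fold change against cancer was 1.14 ± 0.31 SE (edgeR adjusted p = 0.0332). Wnt2b, a ligand of the beta-catenin branch, had 9.18, 6.57 and 11.02 CPM in nivolumab dorsal horns, against 4.61, 5.78 and 4.98 CPM in cancer dorsal horns and 4.36, 5.92 and 7.24 CPM in sham dorsal horns. Its log2 fold change against cancer was 0.80 ± 0.23 SE (adjusted p = 0.0437), with nivolumab 2 again below sham 3. Wnt9a lies at chr11:59306928-59333552, plus strand, and Wnt2b at chr3:104945272-104961921, minus strand, where the annotation places the gene Gm43846 on the same strand.

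The only Frizzled past the threshold was Fzd8, on chromosome 18. It had 7.88, 7.05 and 8.17 CPM in nivolumab dorsal horns, against 5.14, 4.30 and 3.57 CPM in cancer dorsal horns and 6.49, 7.06 and 4.44 CPM in sham dorsal horns, a log2 fold change against cancer of 0.83 ± 0.21 SE (edgeR adjusted p = 0.0249). The cancer libraries were low, and nivolumab and sham overlapped. Fzd6 pointed the same way, with 9.83, 12.1 and 11.7 CPM in nivolumab, 10.7, 4.79 and 5.16 CPM in cancer and 12.3, 11.4 and 9.44 CPM in sham dorsal horns, but cancer 1 lay among the other groups and the adjusted p was 0.118. The other 7 Frizzleds had log2 fold changes between -0.23 (Fzd7) and 0.19 (Fzd4) and did not pass.

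Among the effectors, Ctnnb1 had 406, 384 and 401 CPM in nivolumab dorsal horns, against 363, 323 and 317 CPM in cancer dorsal horns and 363, 378 and 336 CPM in sham dorsal horns. The difference from cancer was small, at 18.7% (log2 fold change 0.25 ± 0.07 SE, edgeR adjusted p = 0.0312). Tcf7l2, which in the mouse cord is also used by maturing oligodendrocytes, had 7.49, 8.49 and 7.92 CPM in nivolumab dorsal horns, against 5.49, 6.05 and 4.89 CPM in cancer dorsal horns and 8.39, 7.93 and 6.26 CPM in sham dorsal horns. Its log2 fold change against cancer was 0.54 ± 0.15 SE (adjusted p = 0.0405), and nivolumab and sham overlapped. Ctnnb1, at chr9:120929216-120960507 on the plus strand, overlaps Ulk4 on the other strand, and Tcf7l2, at chr19:55741820-55933654 on the plus strand, overlaps Ppnr. Apc (log2 fold change 0.14), Tcf7 (0.29) and Lef1 (-0.17) did not pass.

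Of the members that did not pass against cancer, Wnt6 and Wnt5a had groups that did not overlap. Wnt6 had 1.73, 1.34 and 2.37 CPM in nivolumab dorsal horns, against 0.629, 0.190 and 1.06 CPM in cancer dorsal horns (log2 fold change 1.54 ± 0.62 SE, edgeR adjusted p = 0.11). Wnt5a ran the other way, with 16.8, 14.8 and 18.1 CPM in nivolumab dorsal horns against 18.5, 19.97 and 22.6 CPM in cancer dorsal horns (log2 fold change -0.30 ± 0.12 SE, unadjusted p = 0.0296). Lrp5 and Sfrp2 also lay below cancer without overlap, with log2 fold changes of -0.16 and -0.28. Rspo2, the highest R-spondin of the cord, had 22, 17.3 and 25.2 CPM in nivolumab, 11.2, 6.47 and 18.6 CPM in cancer and 12.9, 8.80 and 10.9 CPM in sham dorsal horns, with an adjusted p of 0.127 against cancer. With the replicate number as a block it was called against both, in fits that called 22.5% of all genes against cancer and 12.4% against sham. Wnt3 and Wnt7b, the most abundant ligands of the cord, had log2 fold changes of -0.17 ± 0.19 SE and -0.02 ± 0.19 SE.

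**Figure D3:**
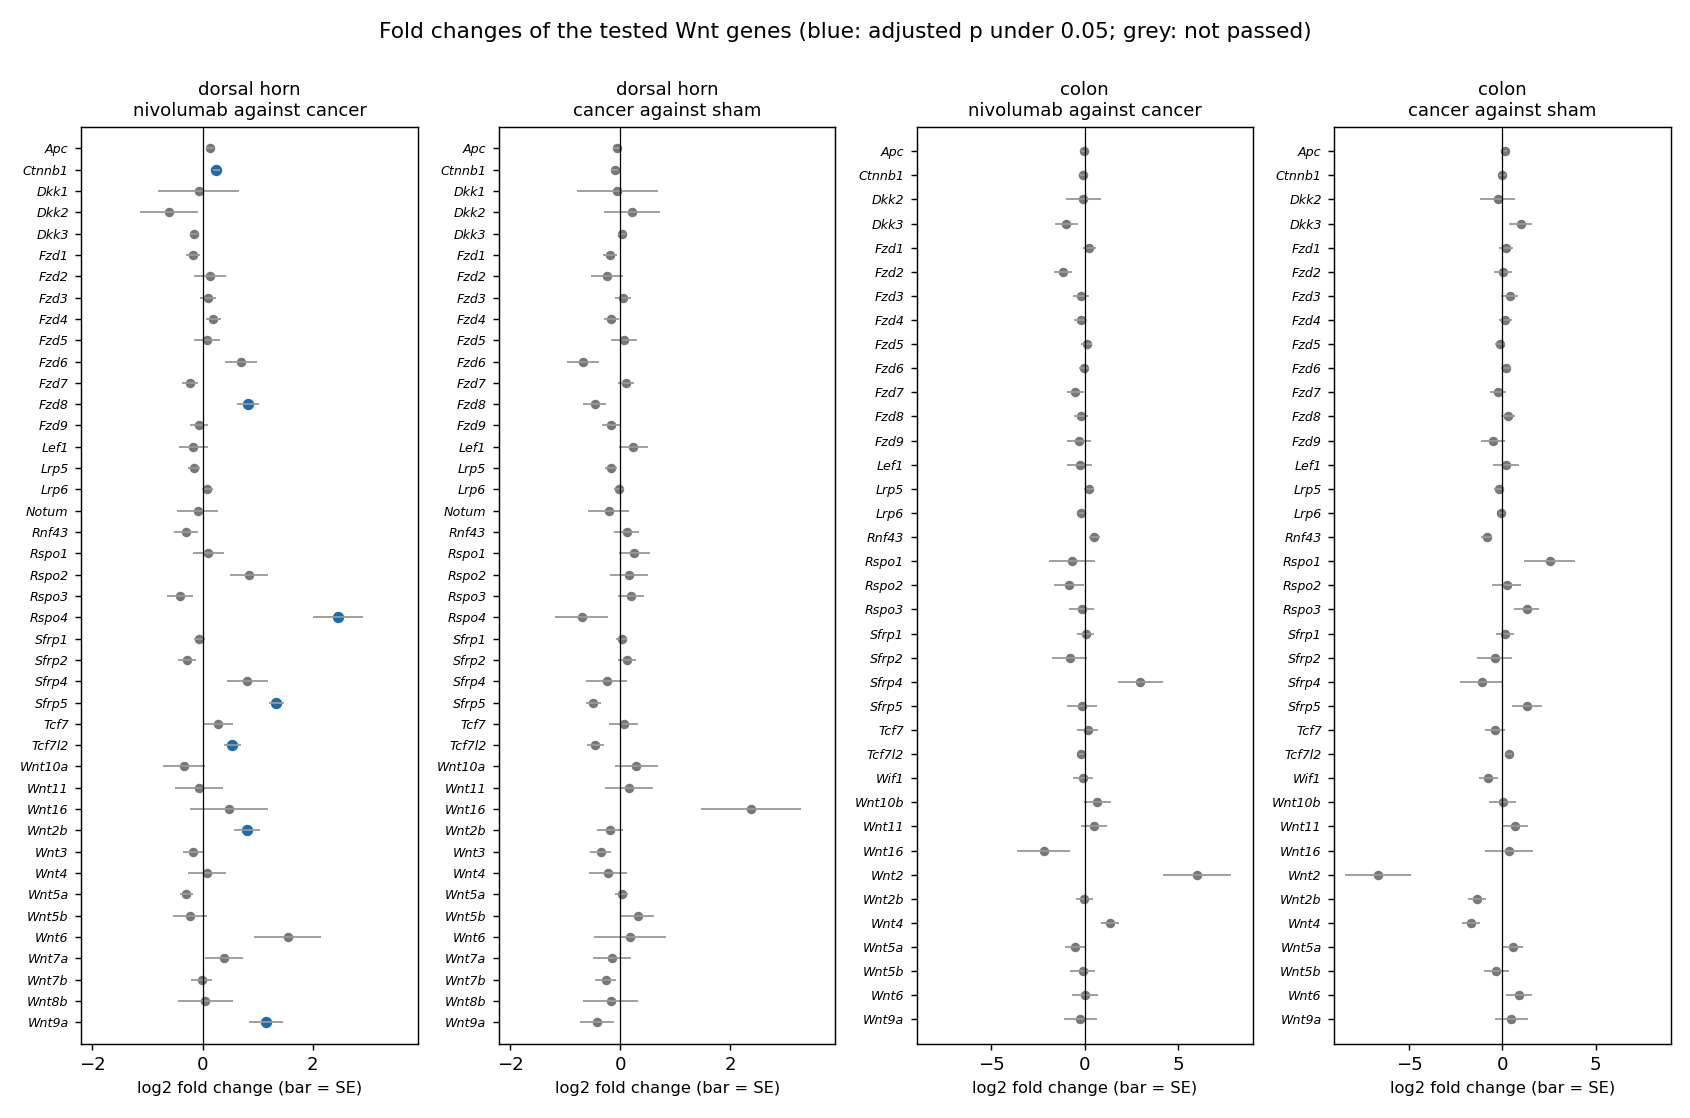
Log2 fold change of every tested member (horizontal axis; points are edgeR estimates, bars are SE) for nivolumab against cancer and cancer against sham in the dorsal horn and in the colon; the axes of the tissues differ. Blue points passed an adjusted p of 0.05, and all 7 of them belong to nivolumab against cancer in the dorsal horn.

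Markers of neighbouring tissue differed between the same dorsal horn libraries. For 14 marker genes of dorsal root ganglion neurons, all in the table, the summed level was 1264 to 2036 CPM in nivolumab, 136 to 721 CPM in cancer and 158 to 666 CPM in sham libraries. Scn10a, a sodium channel of pain-sensing ganglion neurons, had 308, 205 and 400.0 CPM in nivolumab libraries, 0.105, 0.114 and 102 CPM in cancer libraries and 0, 0.079 and 89.4 CPM in sham libraries, and Mrgprd was at 0 in cancer 1 and 2 and in sham 1 and 2. Ganglion markers were thus high in all nivolumab libraries and, among the others, in cancer 3 and sham 3 alone. Sfrp5 was lowest of its group in both of those libraries, at 10.1 CPM in cancer 3 and 14.6 CPM in sham 3. Rspo4 was between the other values in cancer 3, at 0.353 CPM, and highest of its group in sham 3, at 0.758 CPM next to 0.749 CPM in sham 2. Wnt9a was highest of its group in both and Wnt2b in sham 3.

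None of the marker scores used as covariates here and in the next paragraph overlapped between nivolumab and cancer libraries. In these fits tissue content and treatment therefore cannot be told apart, whether a call was kept or lost. With the ganglion score as a covariate, Sfrp5 had a log2 fold change against cancer of 1.51 (edgeR adjusted p = 0.000748) and passed, as did Fzd8, Ctnnb1 and Tcf7l2. Rspo4 at 2.10 (adjusted p = 0.0524), Wnt9a at 0.49 (adjusted p = 0.348) and Wnt2b at 0.52 (adjusted p = 0.290) lost their calls, and Apc, Fzd3 and Wnt7a gained one, among 22.1% of all genes called in that fit. The mean over 10 Schwann cell genes was 6.70 to 6.92 log2 CPM in nivolumab, 5.09 to 5.74 in cancer and 5.57 to 6.58 in sham libraries, so on this score nivolumab and cancer do not overlap. The summed level of the same genes ran differently, at 25560 to 28540 CPM in nivolumab, 16470 to 21960 CPM in cancer and 28530 to 33750 CPM in sham libraries, and 1 of the 10 was at 0 in cancer 3. With the Schwann cell score as a covariate, chosen after seeing the data, no gene was called at all, and Sfrp5 had a log2 fold change of 1.02 (adjusted p = 0.447) and Rspo4 one of 0.84 (adjusted p = 0.794). Sham 2, whose Schwann cell score of 6.58 was near those of the nivolumab libraries, had 18.2 CPM of Sfrp5 and 0.749 CPM of Rspo4. Among sham and cancer libraries, that Sfrp5 value was the highest, and that Rspo4 value was exceeded in sham 3 alone. Cancer 3, with the highest Schwann cell score of its group at 5.74, had the lowest Sfrp5 of its group.

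The mean over 13 leptomeningeal fibroblast genes was 1.56 to 2.02 log2 CPM in nivolumab, 0.52 to 1.53 in cancer and 0.80 to 1.67 in sham libraries, and their summed level was 153 to 213 CPM in nivolumab, 55.8 to 82.1 CPM in cancer and 58.4 to 155 CPM in sham libraries, with at most 2 genes at 0 in a library. With that score as a covariate, also chosen after seeing the data, Sfrp5 was the only one of the 7 members called (log2 fold change 1.13, edgeR adjusted p = 0.0132). The mean over 11 oligodendrocyte and myelin genes was 9.92 to 10.07 log2 CPM in nivolumab, 8.75 to 9.62 in cancer and 9.66 to 10.25 in sham libraries, and none of them was at 0. Their summed level was 45920 to 51000 CPM in nivolumab, 26240 to 37610 CPM in cancer and 48920 to 60040 CPM in sham libraries, so the cancer libraries lay below all others, as they did for Tcf7l2. Of the 11, 3 were higher in nivolumab than in cancer and none was lower. With that score as a covariate, chosen after seeing the data, Tcf7l2 had a log2 fold change against cancer of 0.26 (edgeR adjusted p = 0.433), Fzd8 one of 0.39 (adjusted p = 0.311) and Ctnnb1 one of 0.13 (adjusted p = 0.315), and these 3 lost their calls. Sfrp5 at 1.16 (adjusted p = 0.00231), Rspo4 at 2.66 (adjusted p = 0.0239), Wnt9a at 1.83 (adjusted p = 0.00715) and Wnt2b at 1.05 (adjusted p = 0.0471) passed. Skeletal muscle genes had means of 3.24 to 6.43 log2 CPM in nivolumab, -1.30 to 4.82 in cancer and -0.94 to 4.03 in sham libraries. The dorsal horn neuron list had means of 5.01 to 5.25 log2 CPM in nivolumab, 5.36 to 5.54 in cancer and 5.09 to 5.34 in sham libraries. The part of muscle and neuron content in the Wnt results was not tested.

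**Figure D4:**
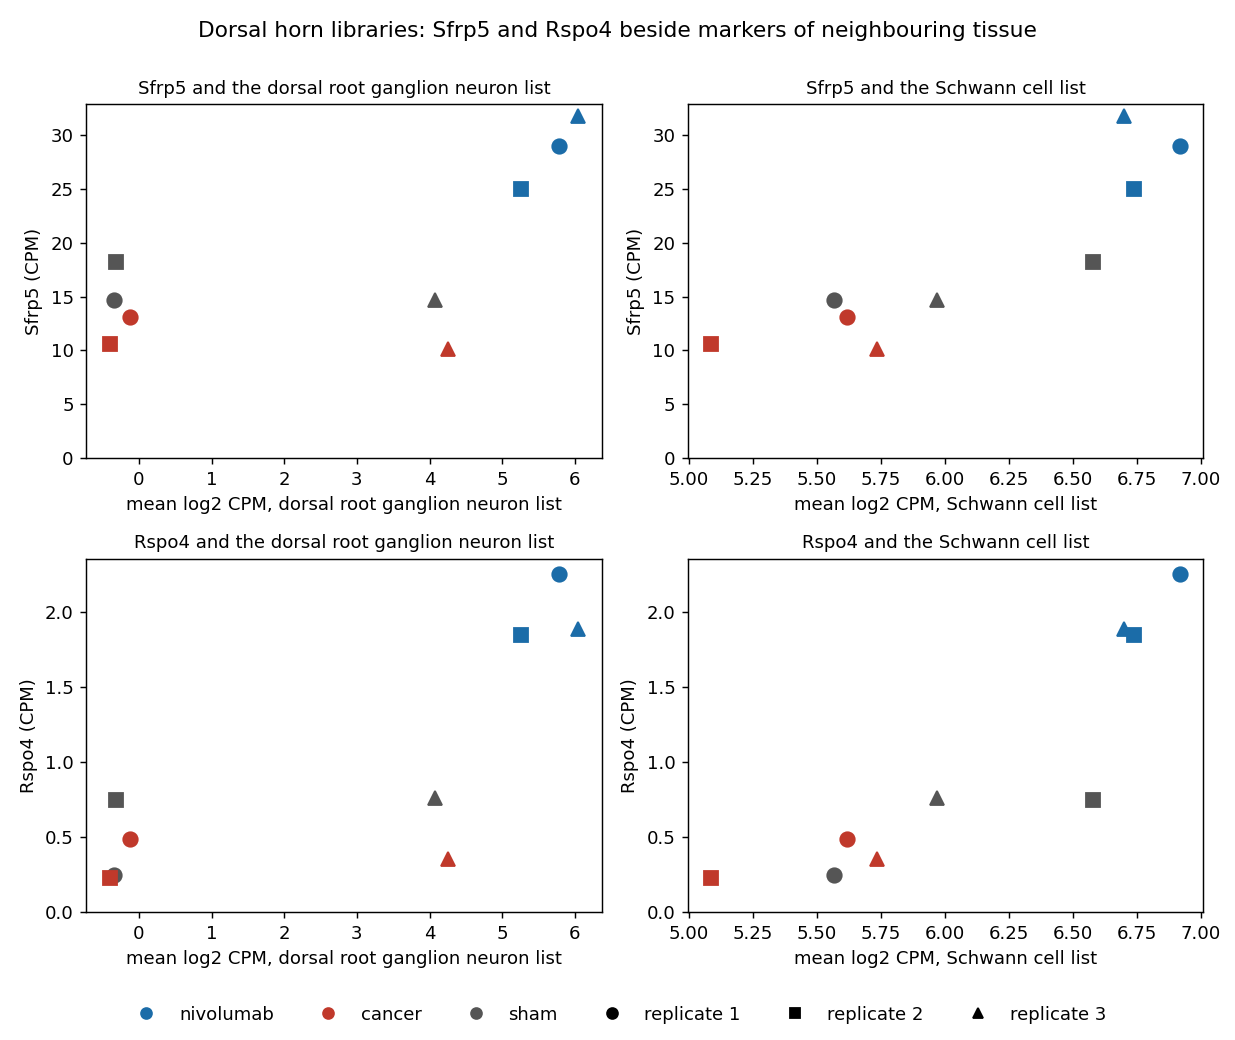
Level of Sfrp5 and Rspo4 in CPM (vertical axes) against the mean log2 CPM of the dorsal root ganglion neuron list and of the Schwann cell list (horizontal axes), 1 point per dorsal horn library, coloured by group and shaped by replicate. Cancer 3 and sham 3, with ganglion scores of 4.26 and 4.07, have the lowest Sfrp5 of their groups, and sham 3 has the highest Rspo4 of its group. Both ganglion scores are below those of all nivolumab libraries. The nivolumab libraries are highest on all axes, with sham 2 close to them on the Schwann cell axis.

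Against sham, 2 of 42 members were higher in the nivolumab dorsal horn and none was lower, 4.76% against 8.51% of all genes tested (4.67% higher and 3.84% lower). An unadjusted p under 0.05 was reached by 12 members (28.6%) and 26.1% of all genes. Sfrp5 was 1.80-fold higher (log2 fold change 0.85 ± 0.14 SE, edgeR adjusted p = 0.0106) and Rspo4 3.38-fold higher (1.76 ± 0.43 SE, adjusted p = 0.0369). That comparison shares its nivolumab libraries with the one against cancer, so they are not independent of each other. The next members by p-value were Wnt16, Lrp5 and Fzd1. Wnt16 had 0.736, 0.582 and 0.777 CPM in nivolumab dorsal horns and 0, 0.197 and 0.076 CPM in sham dorsal horns, near the floor, with a log2 fold change of 2.86 ± 0.88 SE (adjusted p = 0.0731). Lrp5 had 14.6, 14.4 and 14.6 CPM in nivolumab dorsal horns and 20.1, 17.5 and 17.1 CPM in sham dorsal horns (log2 fold change -0.33 ± 0.11 SE, adjusted p = 0.0886), and Fzd1 had 18.1, 19.1 and 19.1 CPM against 20.4, 25.0 and 26.9 CPM (-0.36 ± 0.12 SE, adjusted p = 0.103).

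The groups did not overlap for 10 members in that comparison (23.8%, against 35.2% of all genes, 17% above and 18.2% below). Sfrp5, Rspo4, Rspo2, Wnt16, Wnt6, Ctnnb1 and Tcf7 lay above sham, and Lrp5, Fzd1 and Wnt3 below it. Wnt3 had 15.3, 16.0 and 15.5 CPM in nivolumab dorsal horns, 12.7, 22.8 and 17.2 CPM in cancer dorsal horns and 21.6, 19.6 and 26.3 CPM in sham dorsal horns, with a log2 fold change against sham of -0.53 ± 0.19 SE (edgeR adjusted p = 0.122). The calls were not all kept when single libraries were left out. The count was 0 without sham 1 or nivolumab 1, and 1 without sham 2, sham 3, nivolumab 2 or nivolumab 3. Over the fits without 1 library, the log2 fold change was 0.77 to 0.96 for Sfrp5 and 1.40 to 1.99 for Rspo4. Sfrp5 had adjusted p = 0.0516 without sham 1 and 0.0568 without nivolumab 1, and that of Rspo4 was between 0.0553 and 0.143 without any 1 of these 6 libraries. Without cancer 3, whose group enters only through the shared spread, 4 members were called.

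Between cancer and sham dorsal horns, none of the 42 members passed edgeR's test at an adjusted p of 0.05, and 5 had an unadjusted p under 0.05. Over all genes 0.323% passed and 13.1% had an unadjusted p under 0.05. DESeq2 called none of the members either. The groups did not overlap for 2 members (4.76%), against 16.8% of all genes. The smallest p-value was again that of Sfrp5, whose 13.1, 10.6 and 10.1 CPM in cancer dorsal horns all lay below the 14.7, 18.2 and 14.6 CPM of sham dorsal horns (log2 fold change -0.49 ± 0.14 SE, adjusted p = 0.192). Tcf7l2 also lay below sham without overlap, with 5.49, 6.05 and 4.89 CPM in cancer dorsal horns and 8.39, 7.93 and 6.26 CPM in sham dorsal horns (-0.46 ± 0.15 SE, adjusted p = 0.254). Of the 11 oligodendrocyte and myelin genes 3 were lower in cancer than in sham dorsal horns and none was higher, with a median log2 fold change of -0.76. With their score as a covariate Tcf7l2 had -0.14 (edgeR adjusted p = 0.744). Cancer and sham libraries did not overlap on that score, so oligodendrocyte content and cancer cannot be told apart in that fit. Of 6 red blood cell genes 4 were lower, and their summed level was 152 to 272 CPM in cancer and 789 to 1318 CPM in sham libraries; the part of this in the Wnt results was not tested. Wnt16 (log2 fold change 2.38, adjusted p = 0.306), Fzd6 (-0.68, adjusted p = 0.352) and Fzd8 (-0.46, adjusted p = 0.379) followed. Without cancer 1, the library with 10.7 CPM of Fzd6, that gene had a log2 fold change of -1.14 (adjusted p = 0.0182) and was the only member called. The cancer libraries enter this comparison and the one of nivolumab against cancer, so the values of Sfrp5, Tcf7l2 and Fzd8 in them are not separate evidence.

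Other genes of the pathway were counted from lists outside the members, in nivolumab against cancer dorsal horns, where 17.2% of all genes passed. Of 23 genes of Wnt secretion and co-reception, 4 rose and none fell. They were Sostdc1, a secreted antagonist that binds LRP co-receptors and BMPs, Wls, which carries Wnts to the cell surface, the pseudokinase co-receptor Ptk7, and Ndp, which encodes the Fzd4 ligand norrin. Sostdc1 had 7.10, 5.96 and 7.62 CPM in nivolumab dorsal horns, against 0.944, 1.07 and 1.85 CPM in cancer dorsal horns and 0.493, 1.26 and 1.21 CPM in sham dorsal horns (log2 fold change against cancer 2.43 ± 0.36 SE, edgeR adjusted p = 0.00375). Wls had 48.1, 49.3 and 42.9 CPM in nivolumab dorsal horns against 32.0, 31.1 and 25.8 CPM in cancer dorsal horns (0.66 ± 0.17 SE, adjusted p = 0.0302). Log2 fold changes were 0.40 for Ptk7 and 0.79 for Ndp.

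Of 31 tested genes of intracellular transduction, 2 rose and 4 fell. The kinases Csnk1d (log2 fold change 0.19) and Nlk (0.33) were higher, and the coactivators Crebbp (-0.36) and Pygo1 (-0.52), the kinase Gsk3a (-0.28) and the corepressor Ctbp2 (-0.30) were lower in nivolumab than in cancer dorsal horns. Of 14 tested target genes only Nkd1, a feedback inhibitor that binds Dishevelled, passed (log2 fold change 0.43, edgeR adjusted p = 0.0451). Of 28 genes of planar polarity and the Wnt/calcium branch, 4 rose and 7 fell. The smallest p-value was that of Camk2b, a kinase subunit abundant in neurons, with 381, 398 and 349 CPM in nivolumab dorsal horns and 539, 502 and 529 CPM in cancer dorsal horns (log2 fold change -0.48 ± 0.06 SE, edgeR adjusted p = 0.00216). Dact2 (-0.67), the planar polarity cadherin Celsr2 (-0.42) and the transcription factor Nfatc2 (-0.57) followed. The dorsal horn neuron list, of which 7 of 14 tested genes also fell, moves with these. Against sham, Sostdc1 (log2 fold change 2.79) and Ptk7 (0.78) were higher and Camk2b (-0.33), Dact2 (-0.49) and Camk2g (-0.29) lower. No gene of these lists passed in cancer against sham dorsal horns or in any colon comparison.

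In the colon, edgeR called none of the 37 tested members in any of the 3 comparisons, and 0% of the 13445 genes tested. Of the members, 5 had an unadjusted p under 0.05 in cancer against sham, 4 in nivolumab against cancer and 2 in nivolumab against sham (13.5%, 10.8% and 5.41%), where all genes had 10.9%, 9.84% and 6.45%. DESeq2 called Wnt4 and Wnt2 lower in cancer than in sham colons, among 384 genes, and no member in the other comparisons. The median log2 fold change of the tested members was 0.14 in cancer against sham, -0.12 in nivolumab against cancer and -0.02 in nivolumab against sham, where that of all genes was 0.002, 0.03 and 0.03.

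The ligands gave the smallest p-values. Wnt4, which the mouse gut makes in its stroma, had 3.97, 4.04 and 7.23 CPM in nivolumab colons, 2.61, 2.58 and 0.905 CPM in cancer colons and 8.95, 5.28 and 5.38 CPM in sham colons. The cancer libraries lay below both other groups. Its log2 fold change was 1.34 ± 0.49 SE for nivolumab against cancer (edgeR adjusted p = 0.492) and -1.69 ± 0.50 SE for cancer against sham (edgeR adjusted p = 0.309, DESeq2 adjusted p = 0.0343).

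Wnt2 had 0.119, 0.0995 and 0.666 CPM in nivolumab colons, no read in the 3 cancer colons, and 0.674, 0.612 and 0.137 CPM in sham colons. Summed over the group, these were 26 reads in nivolumab and 41 in sham colons. With a floor of 3 counts put in for the whole cancer group, the ratio to cancer colons was 6.68 for nivolumab and 10.4 for sham colons. These ratios take the reads of the other group as exact, so they are not lower bounds on a group difference. Without nivolumab 3 the nivolumab group had 6 reads and its ratio was 2.38. No colon library held more than 21 reads of the gene. For it edgeR gave adjusted p = 0.465 for nivolumab against cancer and 0.3004 for cancer against sham (DESeq2 adjusted p = 0.0483 for cancer against sham).

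Wnt2b, a stromal ligand of the crypt, had no value in either group with cancer as high as in sham, but neither difference passed. It had 3.66, 1.53 and 3.50 CPM in nivolumab colons, 3.61, 3.63 and 1.81 CPM in cancer colons and 5.84, 9.22 and 7.95 CPM in sham colons. All 6 libraries with cancer lay below the 3 sham libraries. The log2 fold change was -1.40 ± 0.46 SE for nivolumab against sham (edgeR adjusted p = 0.666) and -1.36 ± 0.46 SE for cancer against sham (adjusted p = 0.355), and both comparisons use the same sham libraries. In the dorsal horn the same gene was higher with nivolumab than with cancer, as given above.

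**Figure D5:**
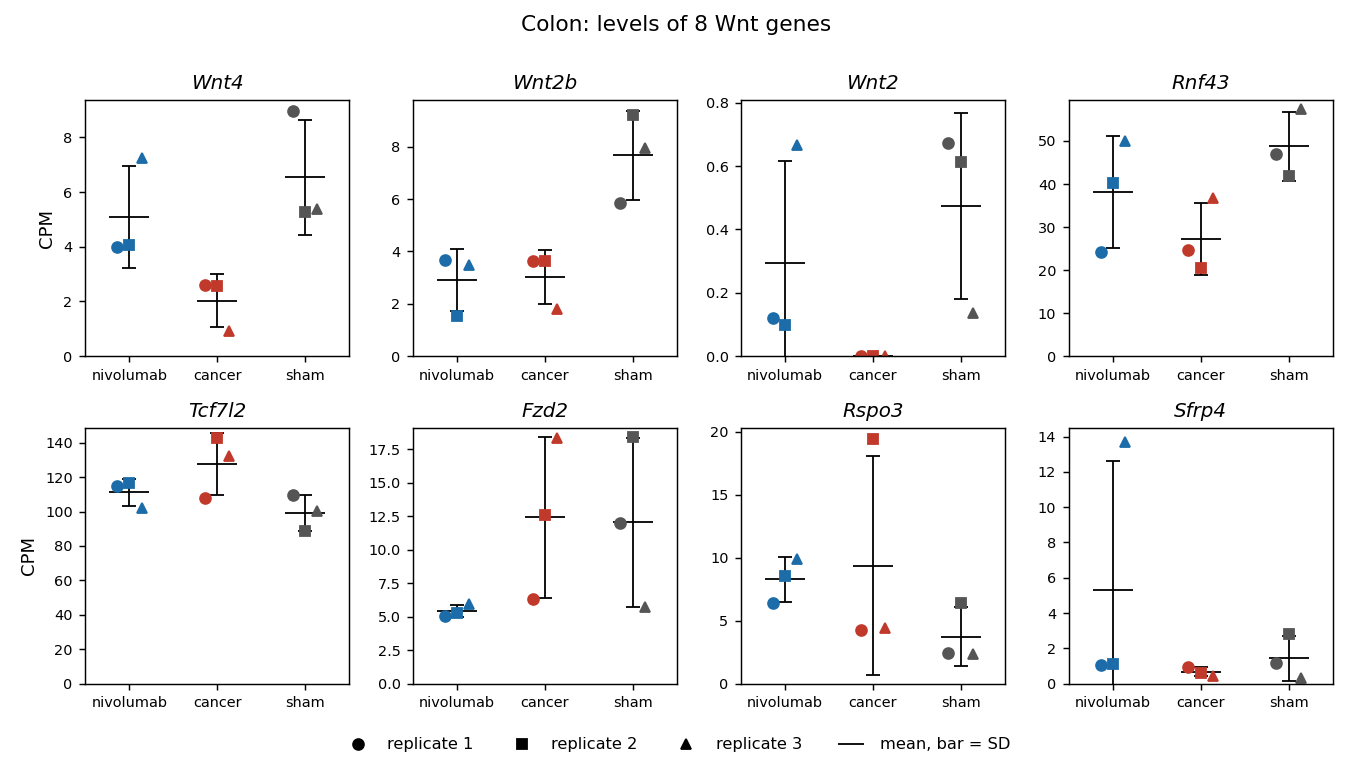
Level in CPM of 8 members in the colon, with 1 symbol per library (circle, square and triangle for replicates 1, 2 and 3) and the mean with SD bars for nivolumab, cancer and sham. Wnt4 is lowest in cancer, Wnt2b is highest in sham, and the Sfrp4 mean of the nivolumab group rests on replicate 3 at 13.7 CPM; none of these differences passed edgeR's adjusted threshold.

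Rnf43 had 24.3, 40.3 and 50.1 CPM in nivolumab colons, 24.7, 20.5 and 36.7 CPM in cancer colons and 47.0, 41.7 and 57.5 CPM in sham colons, with a log2 fold change of 0.51 ± 0.295 SE for nivolumab against cancer (edgeR adjusted p = 0.556) and -0.84 ± 0.30 SE for cancer against sham (adjusted p = 0.366). Tcf7l2 had 115, 116 and 102 CPM in nivolumab colons, 108, 143 and 133 CPM in cancer colons and 110, 88.6 and 100.2 CPM in sham colons (0.35 ± 0.14 SE for cancer against sham, adjusted p = 0.413). Cancer and sham did not overlap for Rnf43 and overlapped for Tcf7l2. Fzd2 had 5.05, 5.27 and 5.96 CPM in nivolumab colons, below the 6.31, 12.6 and 18.3 CPM of cancer colons, while sham colons had 12, 18.4 and 5.72 CPM (-1.17 ± 0.50 SE for nivolumab against cancer, adjusted p = 0.4996).

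Sfrp4 had 1.03, 1.09 and 13.7 CPM in nivolumab colons, against 0.958, 0.612 and 0.452 CPM in cancer colons and 1.16, 2.83 and 0.308 CPM in sham colons. Its log2 fold change against cancer was 2.98 (edgeR adjusted p = 0.496) and 0.65 without nivolumab 3. Rspo3, the main R-spondin of this tissue, had 6.40, 8.52 and 9.93 CPM in nivolumab colons, 4.22, 19.4 and 4.42 CPM in cancer colons and 2.41, 6.43 and 2.36 CPM in sham colons (1.15 for nivolumab against sham, adjusted p = 0.852). Fzd7 and Lrp6 completed the members with the smallest p-values against sham, with log2 fold changes of -0.75 and -0.25 in nivolumab colons.

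Groups did not overlap for 6 members in cancer against sham, 5 in nivolumab against cancer and 4 in nivolumab against sham colons. That is 16.2%, 13.5% and 10.8% of members, where 18.8%, 14.9% and 14.1% of all genes did not overlap. Marker lists also varied between colon libraries. Means over 9 fibroblast and stroma genes were 5.5 to 6.8 log2 CPM in nivolumab, 5.1 to 6.2 in cancer and 5.6 to 6.7 in sham. For 12 enteric neuron and glia genes they were 3.0 to 3.6, 2.8 to 5.1 and 0.6 to 3.9. Summed T and B cell genes had 241 to 391, 147 to 349 and 1019 to 1198 CPM, although their mean scores overlapped. The part of these lists in the Wnt results was not tested. The mean over 10 smooth muscle genes was 7.96 to 8.54 log2 CPM in nivolumab, 9.18 to 10.8 in cancer and 6.93 to 10.6 in sham libraries, and Myh11, the smooth muscle myosin, had 1460, 651 and 793 CPM in nivolumab, 2168, 3954 and 7224 CPM in cancer and 2224, 5153 and 292 CPM in sham libraries. These scores did not overlap between nivolumab and cancer. With this score as a covariate the log2 fold change of Fzd2 for nivolumab against cancer was -0.07 (edgeR adjusted p = 0.993). Smooth muscle content and treatment cannot be told apart in that fit.

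The difference between the tissues' responses was tested in the joint fit. That fit, also used for the sham tissues, takes a shared spread per gene, although the biological coefficient of variation was 0.376 for colon and 0.170 for dorsal horn. It treats all libraries as independent, while colon and dorsal horn may come from the same mice. For cancer against sham, 0 of 44 members passed (8 at an unadjusted p under 0.05, or 18.2%), with 0.155% of all genes passing and 10.9% at an unadjusted p under 0.05. For nivolumab against cancer, 0 passed (6 at an unadjusted p under 0.05, or 13.6%), with 0.127% of all genes passing and 16.4% at an unadjusted p under 0.05. Tcf7l2 had the smallest p-value in both. Its cancer response in the colon minus that in the dorsal horn was 0.85 ± 0.21 SE on the log2 scale (edgeR adjusted p = 0.141, DESeq2 adjusted p = 0.0155), with the gene 1.28-fold the sham level in cancer colons and 0.729-fold in cancer dorsal horns. The nivolumab response of Tcf7l2 against cancer differed by -0.78 ± 0.21 SE (edgeR adjusted p = 0.0978, DESeq2 adjusted p = 0.0277). Sfrp5, the gene with the smallest p-value in the dorsal horn, had 1.43, 3.58 and 3.73 CPM in nivolumab colons and 2.26, 6.07 and 1.51 CPM in cancer colons, and these groups overlapped. Its difference between tissues for nivolumab against cancer was -1.58 ± 0.79 SE (adjusted p = 0.334).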

How the data were processed

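RNA of colon and dorsal horn was sequenced in bulk. Per the labels' protocols, it came from TRIzol extracts and was copied with the SmartScribe reverse transcriptase. The submitters' processing notes list FastQC 0.11.5, Trimmomatic, HISAT2, StringTie and the build GRCm38. No source used here names the counting tool or its strand setting. The values deposited by the authors were raw counts per gene, in 1 table per tissue. A median of 33 colon genes per library had a count of 1 and 189 a count of 2 (37 and 175 for dorsal horn), so a count of 1 may not stand for 1 fragment and counting floors may be too low. No libraries of a group agreed within sampling noise (lowest chi-square per degree of freedom 73.1 for colon, 9.85 for dorsal horn), so all were kept apart.

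CPM used TMM factors. Genes passing filterByExpr by group were tested with edgeR 4.0.16 (glmQLFit, robust, and glmQLFTest, two-sided, R 4.3.3) in all 9 libraries of a tissue, with Benjamini-Hochberg adjustment over every tested gene and calls at 0.05. Tissues were compared in a joint fit of 14164 genes. The fits were checked on simulated data. Deviations from group means of same-numbered nivolumab and cancer dorsal horn libraries had correlations of 0.192, 0.276 and 0.19. Differently numbered pairs of these groups had at most 0.111, but sham 2 and cancer 1 had 0.469. No label states a pairing, and these values do not settle it. SE is the size of the log2 fold change divided by the square root of F. Marker scores are means of log2 CPM with a prior count of 2. Exon lengths and coordinates came from GENCODE M21 by symbol.

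The members and gene lists were chosen with earlier results of these data known. Named are the members past the threshold, those of smallest p up to 5 per comparison, and the highest of each family. Of the other pathway lists, up to 4 genes per comparison fall under this rule; further ones, and members named only because their groups did not overlap, were chosen after their values were seen. Alternatives were upper-quartile and DESeq2 (1.42.0) size factors, DESeq2's test, no filter, at least 50 counts in 3 libraries, only the groups compared, a replicate block, each library left out, dorsal horn sham 3 and cancer 3 left out together, and marker scores as covariates. The Schwann cell, leptomeningeal and oligodendrocyte covariates were chosen after seeing the data.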

Additional observations from a re-analysis of the deposited data

How the results depend on the processing

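Of the fold changes of named genes under the alternatives run, 1422 kept direction and side of the threshold. Another 69 lost a call, 10 gained one and 1 changed direction. The last was Fzd8 in cancer against sham dorsal horns, at 0.0415 with the oligodendrocyte score as covariate. This tally also holds genes with no call to lose and the comparison of sham tissues. Of 21 alternatives in nivolumab against cancer dorsal horns, Tcf7l2 lost its call in 13, Wnt2b in 10, and Ctnnb1 and Wnt9a in 8 each. Fzd8 lost it in 7, Rspo4 in 3 and Sfrp5 in 1. Against sham dorsal horns, Rspo4 lost its call in 9 of 21 and Sfrp5 in 3. The sign of the median over the members was less stable than that of the named genes. Of 189 refitted medians 14 changed sign. Among them were the colon ones for nivolumab against cancer (0.157 with the smooth muscle score, 0.05 without cancer 2) and for cancer against sham (-0.04 without cancer 2). No direction is therefore read from the colon medians. In nivolumab against cancer dorsal horns, the count of 7 members was 0 with the Schwann cell score, 1 with the leptomeningeal score and 4 with the oligodendrocyte score as covariate (0%, 7.63% and 13.7% of all genes called), and between 2 and 7 when single libraries were left out: it was 2 without cancer 2, nivolumab 1 or nivolumab 3, and 4 without sham 1 or cancer 3. Without any 1 library Sfrp5 and Rspo4 passed, whereas Fzd8, Ctnnb1, Wnt9a, Tcf7l2 and Wnt2b each lost the call in some of these fits. In nivolumab against sham dorsal horns, where 8.51% of all genes were called, the count of 2 was 4 with DESeq2 (14.4% of all genes), 5 with only these groups in the fit (9.69%), 5 with the ganglion score (15.4%), 4 with the oligodendrocyte score (20.3%), 0 with the Schwann cell score (0%), 1 with the leptomeningeal score (4.93%), and between 0 and 4 when single libraries were left out (0 without sham 1 or nivolumab 1, 1 without sham 2, sham 3, nivolumab 2 or nivolumab 3, and 4 without cancer 3). Wnt16 was called there by DESeq2 (adjusted p = 0.0275). The count of 0 in cancer against sham dorsal horns ranged from 0 to 1 (1 without cancer 1) and was 1 with the oligodendrocyte score (Fzd3, among 3.83% of all genes). With DESeq2 it was 2 in cancer against sham colons (2.86% of all genes) and 1 in each tissue difference (2.34% for cancer against sham, 5.27% for nivolumab against cancer), and the tissue difference for cancer against sham ranged from 0 to 1 without single libraries (1 without colon sham 2). Without sham 3 and cancer 3 together, Tcf7l2 (adjusted p = 0.0582) and Wnt2b (0.0577) missed the threshold against cancer. The causes were not tested. The dorsal horn covariate fits cannot tell tissue content from treatment, since those scores did not overlap between nivolumab and cancer libraries.

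Same-numbered libraries of different groups correlated between -0.443 and 0.46 in the colon (3 of 9 pairs over 0.1) and between -0.0779 and 0.527 in the dorsal horn (6 of 9). Differently numbered pairs ran from -0.548 to 0.468 in the colon (7 of 18 over 0.1) and from -0.504 to 0.469 in the dorsal horn (5 of 18). Every same-numbered pair was over 0.1 in nivolumab against cancer dorsal horns alone. With a replicate block, 8 members were called there (the 7 and Rspo2) and 3 in nivolumab against sham dorsal horns (Rspo2 added), 27 between sham tissues and 0 elsewhere. Depth limits the members with few reads, such as Wnt2 and Wnt16.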
